A study of Homo sapiens with 4 samples.

Results

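The genes described here encode the subunits of the enzyme complexes that start autophagy, the ULK1 kinase complex and the VPS34 lipid kinase complexes. They were chosen by symbol, with earlier results of these data known, as ULK1, ULK2, ATG13, ATG101 and RB1CC1 for the kinase complex and PIK3C3, PIK3R4, BECN1, ATG14 and UVRAG for the lipid kinase complexes, and all 10 were found among the 30863 genes of the deposited table. HepG2, an established human liver cancer line that the labels record as wild type and as hepatoblastoma, was exposed to AMF or to the solvent DMSO, and polyadenylated RNA was sequenced after 48 h. AMF is read here as amentoflavone, the plant biflavonoid in the title of the series, which speaks of hepatocellular carcinoma. The compound and its dose are uncertain, because one label states 90 µM AMF and the design text states 80 µM of an agent called Tub B. Each group had 2 libraries of the same line, and nothing in the labels shows that they came from separate cultures, so p-values below rest on how far these libraries differ from each other, a spread that may be technical only.

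In human cells the ULK1 complex is the entry point of autophagy. Nutrient and energy sensors act on it through mTORC1 and AMPK, the active kinase moves to the sites where phagophores form, and there it acts on VPS34, which makes the phosphoinositide PI3P that recruits the later machinery. VPS34 works in 2 assemblies that share PIK3C3, PIK3R4 and BECN1. ATG14 directs the first to autophagy and UVRAG directs the second to endosomes and late steps. These activities depend to a large part on phosphorylation, which RNA counts do not measure.

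Values are normalized counts (reads of a gene divided by a size factor per library), with means ± SD over the 2 libraries of a group. Each change is a log2 ratio, AMF over DMSO, on the log2(normalized count + 1) scale, which understates changes of genes with few reads, and p-values are from limma with Benjamini-Hochberg adjustment over all genes tested. Between 24226586 and 26966210 reads per library fell in genes. Mitochondrially encoded genes took 9.53% and 9.61% of them in AMF and 7.73% and 7.69% in DMSO, and the part of this shift in the results below was not tested. All 9 hepatocyte and hepatoma markers had reads, with summed normalized counts of 368072 to 387846 in AMF and 497778 to 515529 in DMSO. They did not move as one: 6 fell, among them APOB, AFP and TF, HNF4A rose (0.86), and ALB and FGB did not pass. The 5 fibroblast markers summed to 23.7 to 32.5 in AMF and 200.2 to 214.9 in DMSO. Most of this came from COL1A1 and PDGFRB, and COL1A2 and COL3A1 had at most 1 read in any library. The 4 endothelial markers summed to 291.5 to 319 in AMF and 159 to 188 in DMSO. Most of this was PECAM1 (289 and 277 in AMF, 145 and 185 in DMSO). VWF rose on few reads, CDH5 did not pass, and KDR had at most 1 read in any library. The 4 of 5 blood cell markers with a row summed to 17576 to 18490 in AMF and 24801 to 25447 in DMSO. Nearly all of that came from LYZ, whereas HBB had at most 1 read in any library. Whether cells contained less of an RNA or fewer cells contained it cannot be told apart in such bulk samples.

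The scaffold gene RB1CC1 rose and the kinase gene ULK1 fell within the same complex, and the genes of the lipid kinase complexes also moved in both directions. Of the 10 genes, 3 rose (RB1CC1, BECN1 and PIK3R4), 3 fell (ULK1, ATG14 and ATG13) and 4 did not pass an adjusted p of 0.05 (ULK2, ATG101, PIK3C3 and UVRAG). Among all 23828 genes tested 31.8% passed, 15.6% as rises and 16.2% as falls. Well counted genes passed more often: of 11137 genes averaging 100 normalized counts or more, the range that holds 9 of the 10, 54.7% passed, 23.6% as rises and 31.1% as falls. All 6 that passed are among these 9, and with so few genes 6 of 9 is not read as different from that background. The median log2 change of the 10 genes was 0.14, against 0.04 over all genes tested and -0.04 over those with a mean of at least 100. All 10 passed the filter of a mean of 1 normalized count, ULK2 barely and through its AMF libraries.

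**Figure D1:**
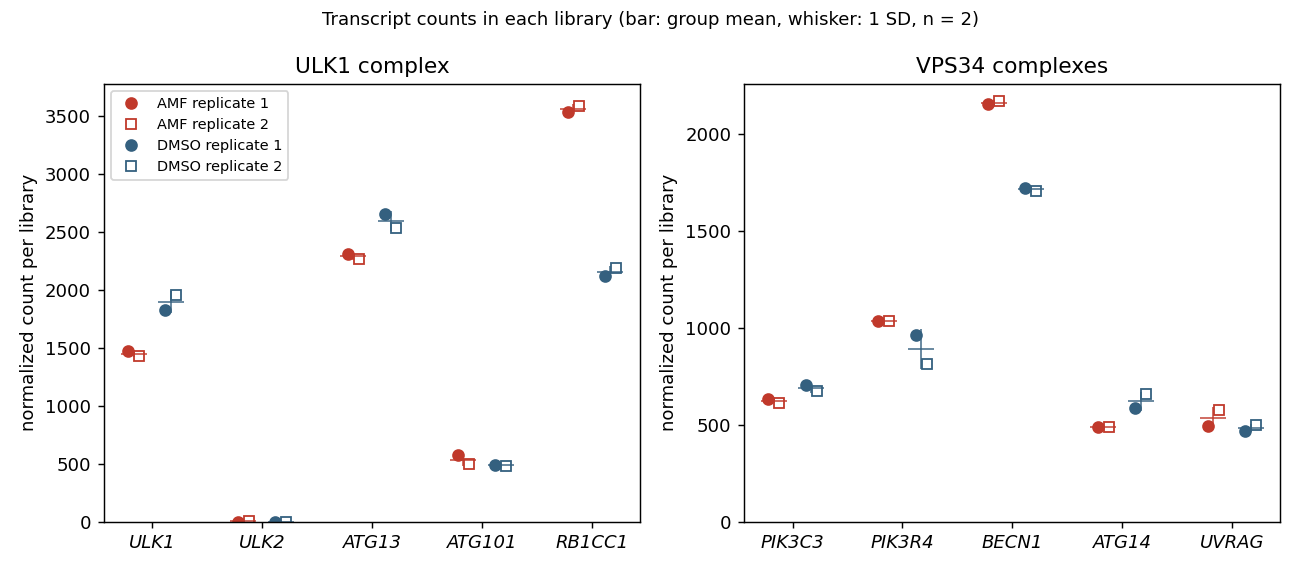
Normalized count (linear axis from 0) of each gene in each library, AMF in red to the left of DMSO in blue, circles for replicate 1 and open squares for replicate 2, with the group mean as a bar and 1 SD as a whisker (n = 2). The AMF libraries of RB1CC1 (3533 and 3589) and BECN1 (2155 and 2173) lie above both DMSO libraries, those of ULK1 (1475 and 1428) lie below, and ULK2 lies at the bottom in all 4.

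ULK1 encodes the serine/threonine kinase that gives the complex its activity. It had 1475 and 1428 normalized counts in AMF, against 1827 and 1959.9 in DMSO. Both AMF libraries lay below both DMSO libraries, and the distance between the groups exceeded the distance within either pair. Its mean of 1451 ± 33.1 in AMF stood against 1894 ± 93.8 in DMSO, so ULK1 fell by 23.4%, a log2 change of -0.38 (SE 0.0596, 95% interval -0.51 to -0.26, adjusted p = 1.56e-04).

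ULK2, the paralog of ULK1 that can take its place in the complex, was barely detected. It had 1 and 3 reads in AMF replicates 1 and 2 and 0 reads in both DMSO libraries. As both groups lay at or under a floor of 3 reads per library, no fold change is given. ULK2 made up 0.0629% (exact 95% interval 0.00159 to 0.350) and 0.216% (0.0446 to 0.630) of the reads of the pair ULK1 and ULK2 in the AMF libraries. In DMSO its 0 reads gave exact 95% upper bounds of 0.202% in replicate 1 and 0.193% in replicate 2, and by the rule of 3 reads over the total, limits of 0.164% and 0.157%. These bounds cover counting error only. Exons of ULK2 overlap no other gene in GENCODE release 29, but the annotation used for counting is not given in the sources used here. Other genes that most cells transcribe also had few reads in this table, namely GABARAP with 17 and 16 reads in AMF and 35 and 24 in DMSO, and PIK3R2 with 4 and 5 reads in AMF and 7 and 5 in DMSO. GENCODE places 55.7% of the exon bases of GABARAP and 87.2% of those of PIK3R2 inside exons of other genes. None of these other genes has a row under its GENCODE name in the deposited table. Genes of the lists below with little or no such overlap also had few reads. PRKAG2, with 1.25% of its exon bases overlapped, had 6 and 10 reads in AMF and 9 and 10 in DMSO. MAP1LC3A, whose exons overlap no other gene, had 6 and 3 in AMF and 1 and 3 in DMSO. Whether the way reads were assigned lowered ULK2 was not tested.

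RB1CC1 encodes FIP200, the large scaffold that holds the kinase complex together and binds cargo receptors. It had 3533 and 3589 normalized counts in AMF and 2119 and 2189.9 in DMSO. The groups were apart by far more than either pair, and RB1CC1 moved furthest of the well counted genes of the complexes. The mean of 3561 ± 39.5 in AMF was 65.3% above that of 2155 ± 49.97 in DMSO, a log2 change of 0.72 (SE 0.0499, 95% interval 0.62 to 0.83, adjusted p = 5.67e-08). Of all the genes tested, 18.4% had a larger positive change. In absolute size, 28.2% of the genes tested changed more than RB1CC1. For the other genes of the complexes that passed, that share ran from 50.1% (ULK1) to 73.2% (ATG13).

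ATG13, the adaptor that joins ULK1 to FIP200, moved in the direction of ULK1 and by less. It had 2312 and 2267 normalized counts in AMF and 2653 and 2532 in DMSO. The groups did not overlap, with the lower DMSO library standing apart from the higher AMF library by more than the gap between the DMSO libraries. Its log2 change was -0.18 (SE 0.0523, 95% interval -0.29 to -0.07, adjusted p = 0.0167), and 4.70% of its exon bases overlap those of HARBI1 on the other strand. The limma-trend call for ATG13 ended without DMSO replicate 1 (-0.14, adjusted p = 0.115) or without DMSO replicate 2 (-0.21, adjusted p = 0.0608). With voom, a related fit to recovered reads, the adjusted p was 0.059 without DMSO replicate 1 and 0.00206 without DMSO replicate 2.

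ATG101, which binds and stabilises ATG13, did not pass. It had 573 and 499 normalized counts in AMF and 486 and 485 in DMSO. Its AMF libraries lay above those of DMSO but differed from each other by more than the lower one differed from DMSO. The log2 change was 0.14 (SE 0.0904, 95% interval -0.05 to 0.33, adjusted p = 0.277), an interval that leaves room for a rise of this size or for no change. It was 0.04 without AMF replicate 1 and 0.24 without AMF replicate 2. An antisense gene, AC025259.1, overlaps 19.2% of its exon bases and has no row under this name in the deposited table.

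**Figure D2:**
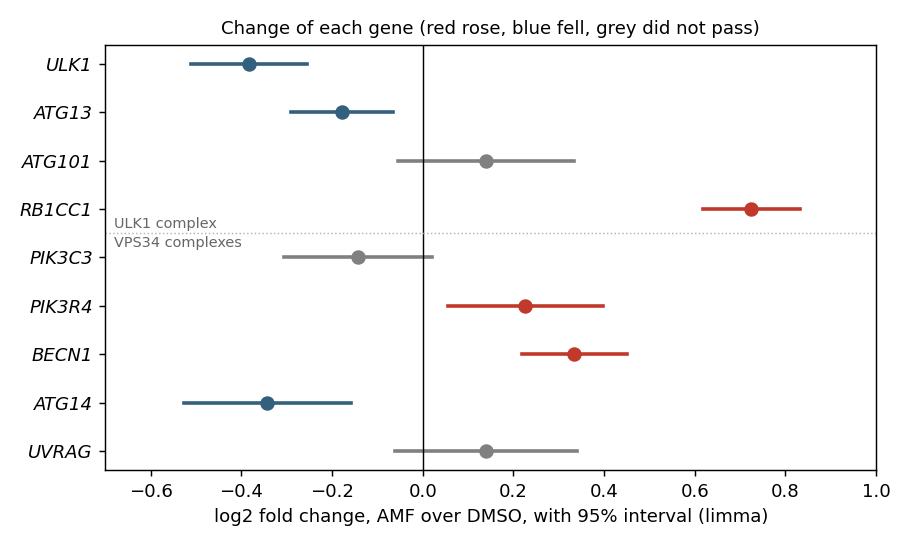
Log2 fold change of AMF over DMSO (points) with the 95% interval from limma (lines) for the 9 genes other than ULK2, the ULK1 complex above the dotted line and the VPS34 complexes below it. Red marks genes that rose, blue those that fell and grey those that did not pass. Each complex holds changes in both directions, from -0.38 for ULK1 to 0.72 for RB1CC1.

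The promoters of the 5 changed genes for which RefSeq tables hold one are shown because genes of the same complex moved in opposite directions. Each is the 250 bases before the annotated start on GRCh38.p14, read from 5′ to 3′ on the strand of the gene: ULK1 at chr12:131894372-131894621 (plus strand), ATG13 at chr11:46617303-46617552 (plus), ATG14 at chr14:55411831-55412080 (minus), PIK3R4 at chr3:130746830-130747079 (minus) and BECN1 at chr17:42823880-42824129 (minus). Capitals mark GCGTG, the core bound by the aryl hydrocarbon receptor dimer, in either orientation (CACGC on the strand shown), and CACGTG, the E-box bound by the TFEB family and by MYC.
ULK1: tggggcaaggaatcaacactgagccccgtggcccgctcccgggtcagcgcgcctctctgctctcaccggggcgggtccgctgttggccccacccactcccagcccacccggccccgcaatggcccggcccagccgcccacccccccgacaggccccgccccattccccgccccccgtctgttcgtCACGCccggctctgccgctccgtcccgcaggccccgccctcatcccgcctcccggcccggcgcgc
ATG13: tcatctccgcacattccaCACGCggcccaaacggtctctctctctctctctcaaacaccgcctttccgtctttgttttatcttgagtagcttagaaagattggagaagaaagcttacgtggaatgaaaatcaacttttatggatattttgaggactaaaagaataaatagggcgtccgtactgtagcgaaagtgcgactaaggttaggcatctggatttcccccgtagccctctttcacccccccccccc
ATG14: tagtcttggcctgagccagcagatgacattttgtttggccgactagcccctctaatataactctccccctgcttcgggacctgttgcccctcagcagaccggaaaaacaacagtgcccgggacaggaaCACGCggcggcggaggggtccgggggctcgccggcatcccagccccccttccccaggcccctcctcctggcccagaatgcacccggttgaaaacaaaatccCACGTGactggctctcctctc
PIK3R4: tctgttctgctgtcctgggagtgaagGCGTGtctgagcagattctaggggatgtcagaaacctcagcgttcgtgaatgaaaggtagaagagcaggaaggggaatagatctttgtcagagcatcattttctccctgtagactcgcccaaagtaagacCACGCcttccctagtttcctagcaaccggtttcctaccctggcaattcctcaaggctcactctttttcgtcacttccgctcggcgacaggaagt
BECN1: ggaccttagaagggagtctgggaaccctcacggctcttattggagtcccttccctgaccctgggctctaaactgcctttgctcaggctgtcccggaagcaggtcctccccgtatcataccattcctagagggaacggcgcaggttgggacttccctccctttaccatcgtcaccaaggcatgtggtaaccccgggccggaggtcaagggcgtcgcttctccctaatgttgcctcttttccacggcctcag
The GCGTG core is a short and common match. It was found in ULK1, ATG13 and ATG14, which fell, and in PIK3R4, which rose, and no match of any motif searched was in the BECN1 window. The E-box of ATG14 begins 21 bases before its start and is the one match to CACGTG among the 8 genes with a promoter in the tables, which besides the 5 printed are ULK2, ATG101 and PIK3C3. RB1CC1 and UVRAG were not matched. GCGTG occurred in 7 of these 8 windows and in 41.2% of the 17236 promoters of tested genes, CACGTG in 1 of 8 and in 7.96%, TGACNNNGC (the antioxidant response element) in 1 of 8, that of ATG101, and in 11.5%, and TTTGGCGC (an E2F site) in 0 of 8 and in 0.743%. Both strands were searched and no matches in the 8 windows overlapped. Of the windows printed, that of ULK1 had the highest GC content with 78.0% and that of ATG13 the lowest with 47.2%, against a median of 63.6% over tested genes. A match says only that the letters are there.

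PIK3C3 encodes VPS34 itself, the catalytic subunit of both lipid kinase complexes, and did not pass. It had 631 and 615 normalized counts in AMF and 705 and 672 in DMSO. The AMF libraries lay below those of DMSO, but the groups stood hardly further apart than the DMSO libraries did from each other. The log2 change was -0.14 (SE 0.0762, 95% interval -0.31 to 0.02, adjusted p = 0.179).

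PIK3R4 encodes VPS15, the pseudokinase that anchors VPS34. It had 1038 and 1036 normalized counts in AMF and 963 and 816 in DMSO. The AMF pair was nearly identical while the DMSO pair spread more widely than the distance from AMF to the nearer DMSO library. Its log2 change of 0.23 (SE 0.0796, 95% interval 0.06 to 0.40) passed narrowly with an adjusted p of 0.0426. Without DMSO replicate 2 the change was 0.11 (adjusted p = 0.255, and 0.418 with voom), and without DMSO replicate 1 it was 0.35 (adjusted p = 0.041). The call also ended with a pseudocount of 0.1 (adjusted p = 0.0868) and with no filter on low values (adjusted p = 0.098).

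BECN1 encodes Beclin 1, the subunit through which BCL2 proteins and many regulators reach the complex. It had 2155 and 2173 normalized counts in AMF and 1725 and 1706 in DMSO. Replicates were close in both groups and the groups were well apart. The mean was 26.1% higher in AMF (2164 ± 12.3) than in DMSO (1716 ± 13.5), a log2 change of 0.33 (SE 0.0536, 95% interval 0.22 to 0.45, adjusted p = 2.05e-04). In GENCODE 12.4% of its exon bases overlap those of CNTD1 and 4.68% those of PSME3, both on the other strand, and these libraries keep no strand. CNTD1 had 45.5 and 39.1 normalized counts in AMF and 39.0 and 20.5 in DMSO. The well counted neighbour PSME3, a proteasome activator subunit, rose too (0.25, SE 0.0456, adjusted p = 5.29e-04), and its part in the value of BECN1 was not tested.

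ATG14 and UVRAG are the subunits that exclude each other on Beclin 1. ATG14 had 487 and 490.4 normalized counts in AMF and 586 and 657 in DMSO. The groups did not overlap, and the AMF pair was again the tighter one. Its log2 change was -0.34 (SE 0.0856, 95% interval -0.53 to -0.16, adjusted p = 0.00629), and its mean fell by 21.3%. The call for ATG14 ended without DMSO replicate 2 (-0.26, adjusted p = 0.101, and 0.0631 with voom).

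UVRAG had 494 and 576 normalized counts in AMF and 469 and 499.99 in DMSO. It was the one gene of the 10 whose groups overlapped. Groups did not overlap for the 9 others, nor for 63.4% of all genes tested. Without ULK2 this was 8 of the 9 well counted genes, against 79.9% of genes averaging 100 or more. The log2 change of UVRAG was 0.14 (SE 0.0939, 95% interval -0.06 to 0.34, adjusted p = 0.296), and it was 0.25 without AMF replicate 1 and 0.03 without AMF replicate 2. The antisense genes UVRAG-DT and AP002340.1 overlap 3.78% and 2.17% of its exon bases and have no row under these names in the deposited table.

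Within each library the ratio of 2 transcripts does not depend on the size factor, apart from the pseudocount. The ratio of ATG14 to UVRAG counts was 0.99 and 0.85 in AMF and 1.25 and 1.31 in DMSO. The AMF libraries were both lower, by 0.48 on the log2 scale on average (exact two-sided permutation p = 0.333, the smallest that 2 against 2 libraries allow). The ratios of RB1CC1 to ULK1 and of BECN1 to PIK3C3 were chosen after their values were seen. RB1CC1 to ULK1 was 2.395 and 2.51 in AMF and 1.16 and 1.12 in DMSO. BECN1 to PIK3C3 was 3.41 and 3.53 in AMF and 2.45 and 2.535 in DMSO. In both the pairs of libraries were close. That their groups did not overlap was fixed by the choice of genes. RB1CC1 and BECN1 were higher in both AMF libraries than in DMSO, and ULK1 and PIK3C3 were lower in both. The separation therefore adds nothing to the values of the single genes. These ratios compare libraries and do not give the proportion of the proteins.

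**Figure D3:**
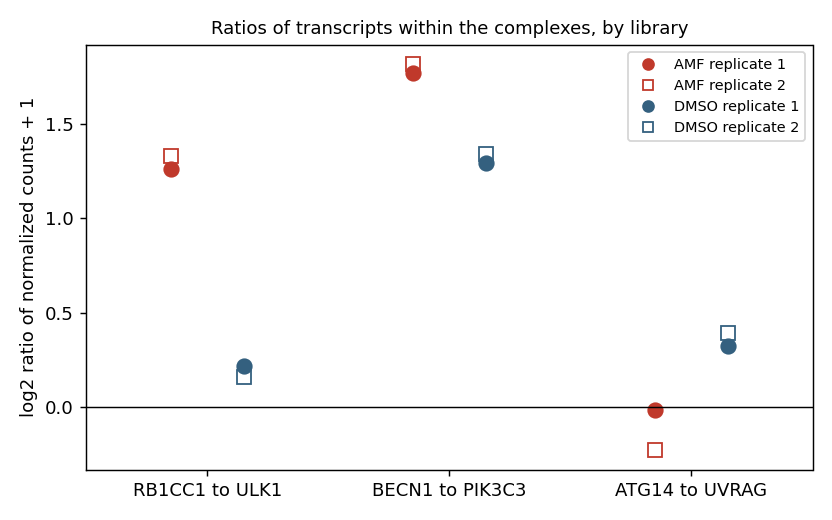
Log2 ratio of normalized counts + 1 for 3 pairs of transcripts in each library, AMF in red to the left of DMSO in blue, circles for replicate 1 and open squares for replicate 2. RB1CC1 to ULK1 is near 1.3 in AMF and 0.19 in DMSO, and BECN1 to PIK3C3 is higher in AMF. RB1CC1 to ULK1 and BECN1 to PIK3C3 were chosen after their values were seen. ATG14 to UVRAG lies below 0 in AMF and above 0 in DMSO.

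Levels of different genes were compared per kilobase of the longest principal transcript in GENCODE, as normalized counts per kilobase. BECN1 stood highest, with a level of 1025 ± 5.83 in AMF and 812 ± 6.37 in DMSO, followed by ATG13 with 570.4 ± 7.88 in AMF and 646 ± 21.4 in DMSO. RB1CC1 had a level of 537 ± 5.95 in AMF and 325 ± 7.53 in DMSO. In DMSO its level was below those of ULK1 (357 ± 17.7) and ATG101 (337 ± 0.606), and neighbours in that order among these 3 genes differed by about their spread. In AMF it stood well above ATG101 (372 ± 36.5) and ULK1 (273 ± 6.23). PIK3R4 followed with 207 ± 0.254 in AMF and 177 ± 20.6 in DMSO. The mutually exclusive subunits were close in level, UVRAG at 129.7 ± 14 in AMF and 117 ± 5.34 in DMSO and ATG14 at 103 ± 0.426 in AMF and 131 ± 10.6 in DMSO. PIK3C3 was low with 66.0 ± 1.23 in AMF and 72.9 ± 2.42 in DMSO, and ULK2 was the lowest. Per kilobase of all annotated exons together, RB1CC1 came first in AMF with 468 and second in DMSO with 283, after ATG13 with 370.3 in DMSO. By that length ATG14 stood above UVRAG in both groups, with 96.8 and 84.2 in AMF and 123 and 76.3 in DMSO. PIK3C3 and ULK2 were again the lowest. The order at the top therefore rests on the length chosen, as do the closeness of ATG14 and UVRAG and their order in AMF.

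Fitted without each library in turn, the direction stayed the same for the 9 well counted genes. Without DMSO replicate 1 or 2, RB1CC1, BECN1 and ULK1 passed in each fit, with changes of 0.70 and 0.75, 0.34 and 0.33, and -0.43 and -0.33. Without AMF replicate 1 or 2, limma-trend called 0 of the 10 genes and 0 genes in all, although without adjustment 4 and 5 of the 10 and 6575 and 6387 of all genes had p under 0.05. With voom, fitted to the whole reads recovered from the values, the same omissions called RB1CC1 alone of the 10 (adjusted p = 0.0417 and 0.042), with 1379 and 1315 genes in all. In these fits the lone library of a group is assumed to vary like the other group, and limma-trend had a prior of 0.995 and 1 degrees of freedom, against 11.9 with all libraries.

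**Figure D4:**
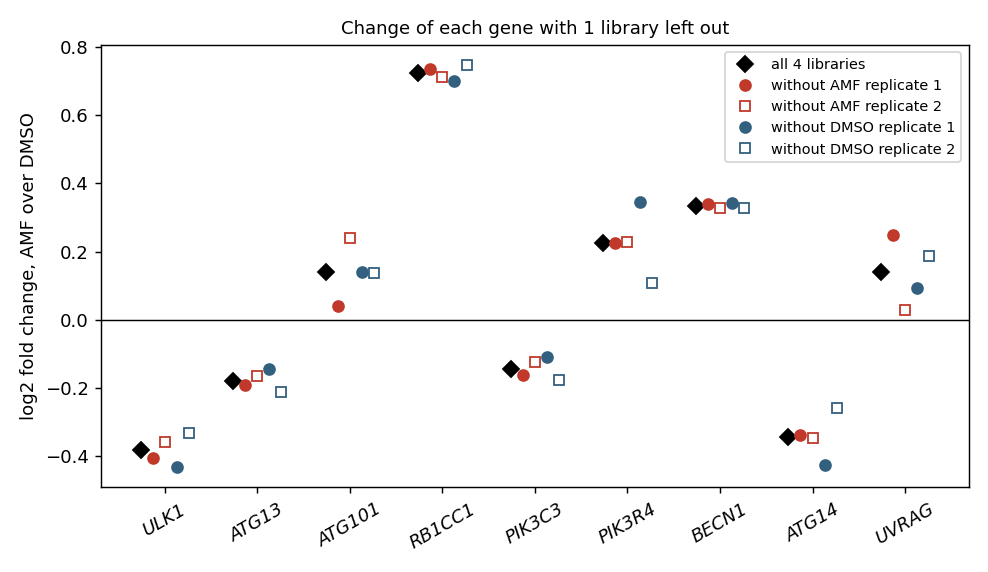
Log2 fold change of AMF over DMSO by limma for the 9 genes other than ULK2, with all 4 libraries (black diamonds), without an AMF library (red) or without a DMSO library (blue). RB1CC1 stays between 0.70 and 0.75, whereas PIK3R4 ranges from 0.11 to 0.35 with the DMSO library used.

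Genes around the complexes were counted in lists that the 10 do not belong to. For comparison, 15.6% of all genes tested rose and 16.2% fell. Of genes averaging 100 normalized counts or more, 23.6% rose and 31.1% fell, so that 54.7% passed. Differences of the lists from these shares were not tested. Among partners and regulators of the VPS34 complexes, 2 of 13 tested rose and 6 fell (61.5% passed), with a median log2 change of -0.09. DAPK1, a kinase that phosphorylates Beclin 1, had 743 and 697 normalized counts in AMF and 1491 and 1416 in DMSO, and fell (-1.01, SE 0.0681, adjusted p = 4.50e-08). BCL2, which binds and restrains Beclin 1, had 110.5 and 125 in AMF and 166 and 198 in DMSO and fell (-0.62, adjusted p = 0.00569). Without DMSO replicate 1 or 2 its change was -0.75 and -0.50, which limma-trend no longer called (adjusted p = 0.068 and 0.142) and voom did (5.99e-04 and 0.0486). VMP1, an endoplasmic reticulum scramblase, rose (0.34), as did the BCL2 family member MCL1 (0.34).

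Some partners sit in or on the complexes themselves, and they were picked out after their values were seen. AMBRA1, an adaptor that links Beclin 1 to other partners, had 1488 and 1521 normalized counts in AMF and 1842 and 1949.6 in DMSO, and fell (-0.33, SE 0.0578, adjusted p = 4.05e-04). NRBF2, a subunit that binds the ATG14 complex, had 841 and 776 in AMF and 831 and 892 in DMSO (-0.09, SE 0.0748, adjusted p = 0.4), with groups that overlapped. RUBCN, the Rubicon protein that restrains the UVRAG complex and whose row carries the older symbol KIAA0226, had 427 and 412 in AMF and 377 and 352 in DMSO (0.20, SE 0.0936, adjusted p = 0.121). Its relative RUBCNL had 1 read in each AMF library and 0 in each DMSO library, and BECN2, under an older symbol, had 0 reads in both AMF libraries and 2 and 0 in DMSO, so neither was tested.

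Among 23 genes that act on ULK1 (AMPK and mTORC1 subunits, chaperones, ubiquitin ligases, phosphatases and the C9orf72 complex), 5 rose and 5 fell, with a median of -0.01. PRKAA1 and PRKAA2 encode the alternative catalytic alpha subunits of AMPK, which phosphorylates ULK1. PRKAA1 had 1397 and 1552 normalized counts in AMF and 1886 and 1999.9 in DMSO and fell (-0.40, SE 0.0645, adjusted p = 2.19e-04). Without DMSO replicate 1 or 2 its change was -0.44 and -0.36, which limma-trend no longer called (adjusted p = 0.0608 and 0.0886) and voom did (1.14e-09 and 1.79e-06). PRKAA2, picked out after its values were seen, had 1543 and 1589 in AMF and 1409 and 1403 in DMSO. Its groups did not overlap, with AMF higher, and its change of 0.15 (SE 0.0580) did not pass (adjusted p = 0.0566). PPM1D, a phosphatase of ULK1, had 849.6 and 862 in AMF and 956 and 992 in DMSO and passed narrowly (-0.19, adjusted p = 0.0498). That call ended with a pseudocount of 0.1 (0.0565), no filter (0.0668) or library totals as scaling (0.0857), and without DMSO replicate 1 or 2 (-0.21 and -0.16, adjusted p = 0.0982 and 0.161, and 0.0559 and 0.196 with voom). NEDD4L, a ubiquitin ligase of ULK1, rose (0.35, SE 0.0461), with 5314 and 5044 in AMF and 4067 and 4083 in DMSO. The kinase TBK1 rose as well (0.32, adjusted p = 0.00242), and without DMSO replicate 2 its change was 0.27 (adjusted p = 0.0679, and 0.0119 with voom).

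Of the other ULK family kinases (ULK3, ULK4 and STK36), 0 rose and 1 of 3 fell with limma-trend and with voom, and at an unadjusted p under 0.05 0 rose and 2 fell. The one that passed was STK36, with 1158 and 1064 normalized counts in AMF and 1223 and 1321 in DMSO (-0.20, adjusted p = 0.0434). The STK36 call ended with a pseudocount of 0.1 (0.0732), no filter (0.084) or library totals (0.0703), and without DMSO replicate 1 or 2 (-0.25 and -0.14, adjusted p = 0.128 and 0.302), though voom kept it without replicate 1 (0.0077) and not without replicate 2 (0.228). Of 8 tested genes of other PI3-kinases, which are not VPS34 subunits, 1 rose and 4 fell (62.5% passed), with a median of -0.21. Of genes averaging 100 or more, 54.7% passed. PIK3C2B, a class II enzyme, had 224 and 208 in AMF and 559 and 557 in DMSO, and fell (-1.37, SE 0.0978, adjusted p = 8.42e-08). PIK3R1, a regulatory subunit of class I enzymes, fell (-0.56) and the class I catalytic subunit PIK3CD rose (0.46).

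Downstream of VPS34, 1 of 10 readers and phosphatases of PI3P rose and 2 fell, with a median of 0.02. WIPI1, a PI3P reader on forming autophagosomes, had 1417 and 1417 normalized counts in AMF and 1163 and 1119 in DMSO and rose (0.31, SE 0.061, adjusted p = 0.00105). Its relatives WIPI2 (-0.20, adjusted p = 0.0153) and WDR45B (-0.24, adjusted p = 0.00215) fell. A further relative, WDR45, picked out after its values were seen, did not pass (-0.08, adjusted p = 0.586). Without DMSO replicate 1 or 2 the change of WIPI2 was -0.22 and -0.18 (adjusted p = 0.0668 and 0.0991, and 0.009 and 0.0519 with voom). Without DMSO replicate 1 that of WDR45B was -0.20 (adjusted p = 0.069, and 0.00255 with voom). Of 22 genes of the later machinery (ATG9 and ATG2 proteins, conjugation enzymes, ATG4 proteases, LC3 family and SQSTM1), 8 rose and 0 fell with limma-trend and with voom, and at an unadjusted p under 0.05 9 rose and 1 fell. The median of that list was 0.14. Its largest rises were in ATG9B (71.5 and 80.4 in AMF, 28.0 and 29.8 in DMSO) and in the protease gene ATG4A (271 and 269.9 in AMF, 165 and 144 in DMSO). Without DMSO replicate 1 the change of ATG9B was 1.32 (adjusted p = 0.0503, and 0.00293 with voom). Against this list the initiation genes differed in holding as many falls as rises, a difference that was not tested. That balance was not particular to them. The ULK1 regulators had 5 rises and 5 falls among 23 genes, and all genes tested had 15.6% and 16.2%. It also rests on 3 rises and 3 falls, and some of these calls depended on the fit, as given above. Exons of TBK1, VMP1, NEDD4L, STK36, WIPI1, PIK3CD, WDR45B, MCL1 and ATG9B overlap those of neighbouring genes by 0.0458% (MCL1) to 28.1% (WIPI1) of their bases.

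**Figure D5:**
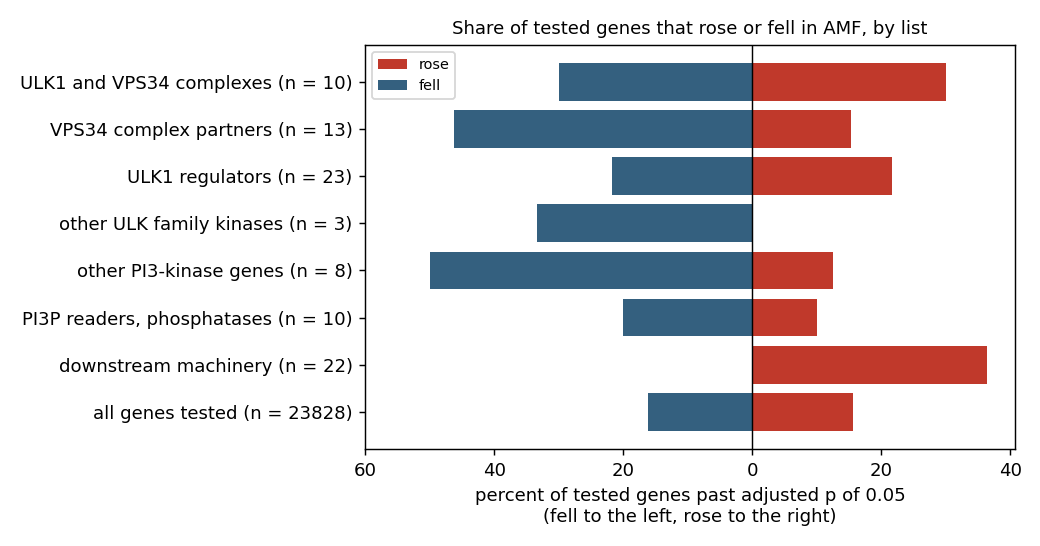
Percent of the tested genes of each list that rose (red, to the right) or fell (blue, to the left) in AMF at an adjusted p of 0.05 from limma, with the number tested in brackets. The ULK1 and VPS34 complexes (30% each way) have equal shares of rises and falls, and the downstream machinery has 36.4% rises and no falls. All genes tested (15.6% and 16.2%) stand at the bottom for comparison. Genes averaging 100 normalized counts or more, which are not drawn, had 23.6% rises and 31.1% falls.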

How the data were processed

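The 4 HepG2 libraries, 2 of AMF and 2 of DMSO, were made from poly(A) RNA with a kit that keeps no strand, per the labels' protocols. Per the submitters' processing notes, reads went through STAR 2.7.0 and featureCounts, and hg19 is the build named. For the gene annotation, the filters on reads and the scaling the authors applied, what was used is not given in the sources used here. Values deposited by the authors are log2-like and share a lowest value f of 6.01. From their shape they were read as variance-stabilized counts after division by size factors. A deposited value V was turned back into a normalized count as 2^V - 2·2^f + 2^(2f - V). All values (100%) were then whole reads within 0.01, at 0.929 to 1.03 normalized counts per read. Each column's name matched 1 sample, with 0 columns left over.

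Differences were tested with limma-trend (limma 3.58.1, R 4.3.3) on log2(normalized count + 1), in a model of group alone, for 23828 genes whose mean reached 1, with Benjamini-Hochberg adjustment, after a check on simulated counts. No count test served as the main test because the deposited unit is log2. Also tried were a pseudocount of 0.1, no filter, a minimum mean of 10, the deposited log2 values, voom, library totals, fits lacking 1 library, a replicate block and an adjusted p of 0.01. Members, lists and tests were chosen with earlier results of these data known. All members are named, and from every list up to 2 rises and 2 falls, the largest past the threshold among genes averaging 10 or more. GENCODE release 29 gave exon lengths and overlaps and RefSeq gave promoters, neither on hg19. Members other than ULK2 had 469 to 3805 reads per library. Libraries of one group were not copies of each other (chi-square over degrees of freedom 2.27 for AMF, 4.02 for DMSO). PIK3C2G, PIK3CG, MAP1LC3C and PTPRC had no row and were not analysed here. Figures were drawn with matplotlib 3.10.9.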

Additional observations from a re-analysis of the deposited data

How the results depend on the processing

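Across the pseudocount of 0.1, no filter, a mean of at least 10, the deposited log2 values, voom, library totals and an adjusted p of 0.01, the members that rose numbered 2 or 3 and those that fell 2 or 3, against 3 and 3, and genes past the threshold ranged from 5469 to 7752, against 7578. A mean of at least 10 left ULK2 out. With 1 library left out, by limma-trend or voom, the counts ran from 0 to 6776 genes past the threshold, from 0 to 3 members higher and from 0 to 2 members lower. Such fits have 1 residual degree of freedom among samples, which is part of their construction. None of the 30 genes refitted under these settings, the 10 members and 20 genes of the lists, changed direction. The neighbouring genes, PRKAA2, WDR45, GABARAP, PIK3R2, PRKAG2, MAP1LC3A and the marker genes were not followed across these settings. The median log2 change of all genes was 0.04, and 0.06 with library totals. The replicate number as a block gave 8157 genes past the threshold and the same 3 members higher and 3 lower. Deviations of same-numbered libraries had a correlation of 0.0238 over 11137 genes, so the numbers are not taken as pairs. The ratio of ULK1 to ULK2, planned as a comparison, was not read, since it was -1.87 (log2, AMF minus DMSO) with a pseudocount of 1 and -4.56 with 0.1. At these depths the intervals of ATG101, PIK3C3 and UVRAG include no change as well as changes of about the size seen in the genes that passed narrowly.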
